A study of Homo sapiens with 78 samples.

Results

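The 10 genes described here code for S100 proteins (S100A4, S100A6, S100A10, S100A11, S100A13 and S100A16), annexins (ANXA1, ANXA2 and ANXA5) and galectin-1 (LGALS1). They were chosen on measured values, because they were found at a higher level in A375 than in Jurkat cells, and S100A6 because it is among the strongest A375 genes. They are 10 of the 58388 genes to which the quantified transcripts were summed. The wells hold single living cells of A375, a human melanoma line, or of Jurkat (clone E6-1), a human T-cell leukemia line. Live, 7-AAD negative cells were placed in plates by flow cytometry, A375 in PBS after staining for CD47 and Jurkat in lysis solution after staining for CD81, with no treatment. For each line, total RNA was profiled with 2 kits, the SMARTer Stranded v2 Pico Input Mammalian kit (#634413) and the SMART-Seq Stranded Kit (#634444). The workflow of the latter, with pooling of 8 wells, was also followed with the reagents of the former. There were 21 A375 wells and 18 Jurkat wells for each kit, and nothing in the labels tells apart the cultures from which the cells came. Each of the 4 groups was therefore taken as 1 sample, no test was made between them, and intervals cover counting error only. Cell line and sort buffer cannot be told apart.

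S100 proteins are small proteins of the EF-hand type that mostly work as dimers. Most of them, but not all, bind calcium, change shape with it and then bind other proteins. Annexins bind acidic phospholipids of membranes in a calcium-dependent way, and some S100 proteins dock on the N-terminal tail of an annexin, as S100A10 does on ANXA2 and S100A11 on ANXA1. Galectin-1 binds galactose-containing glycans inside and outside the cell and can bring T cells to apoptosis. Most of the S100A genes lie in a cluster on the long arm of chromosome 1.

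Levels are given in CPM (counts per 1000000), the estimated counts of a gene divided by all estimated counts without the spike sequences, either in 1 well or summed over the wells of a group (pooled CPM). Levels of different genes are set side by side only in TPM, which take the transcript length into account. Wells held 909 to 2567265 counts. Wells with at least 25% of the median total (203424 counts) and at least 50% of their counts on protein coding genes are called intact. They comprised 15 of 21 A375 wells for each kit and all 18 Jurkat wells for each kit. Of 12 T cell markers, all were at least 4-fold higher in Jurkat, with a summed level of 1213 to 3678 CPM in Jurkat wells and of at most 44.7 CPM in A375 wells. CD3D and CD3E had no count in A375. Of 12 melanoma line markers, 4 of 6 and 6 of 8 with a mean of at least 10 CPM over both lines were at least 4-fold higher in A375, with a summed level of 947 to 4062 CPM in intact A375 wells and of 175 to 1019 CPM in Jurkat wells, where VIM and PRAME were also measured. SOX10 and CSPG4 had pooled levels of 287 to 464 CPM in A375 and of at most 0.417 CPM in Jurkat, whereas the pigment genes PMEL, MLANA, TYR and DCT were at most at 3.97 CPM in A375.

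The promoter sequences of 4 members that set out the main patterns are shown first, since S100A6 and S100A11 had at most 1 count in the Jurkat wells of a kit, whereas S100A10 and ANXA2, which code for partner proteins, were found in part of the Jurkat cells. Each run holds the 250 bases before the RefSeq start site (GRCh38.p14), written 5′ to 3′ on the strand of the gene. Capitals mark the GC box GGGCGG, the AP-1 motif TGANTCA and the TATA motif TATAAA, searched on both strands. The S100A6 window lies at chr1:153535992-153536241, that of S100A11 at chr1:152037005-152037254, that of S100A10 at chr1:151993860-151994109 and that of ANXA2 at chr15:60397987-60398236, all on the minus strand.
S100A6: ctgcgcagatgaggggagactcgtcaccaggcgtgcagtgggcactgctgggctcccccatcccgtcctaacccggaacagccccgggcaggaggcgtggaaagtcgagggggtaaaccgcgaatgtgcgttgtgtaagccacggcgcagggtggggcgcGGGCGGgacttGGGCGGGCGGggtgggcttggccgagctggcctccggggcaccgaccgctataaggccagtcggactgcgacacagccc
S100A11: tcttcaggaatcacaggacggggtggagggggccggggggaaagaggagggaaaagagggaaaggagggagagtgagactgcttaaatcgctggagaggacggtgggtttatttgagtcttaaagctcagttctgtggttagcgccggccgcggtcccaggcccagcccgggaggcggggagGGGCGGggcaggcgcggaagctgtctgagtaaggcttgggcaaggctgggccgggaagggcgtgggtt
S100A10: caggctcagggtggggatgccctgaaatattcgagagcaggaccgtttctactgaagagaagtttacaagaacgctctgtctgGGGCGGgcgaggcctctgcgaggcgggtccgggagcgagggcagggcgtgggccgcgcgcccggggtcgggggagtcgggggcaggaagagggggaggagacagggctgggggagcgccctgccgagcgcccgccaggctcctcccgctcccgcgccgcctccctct
ANXA2: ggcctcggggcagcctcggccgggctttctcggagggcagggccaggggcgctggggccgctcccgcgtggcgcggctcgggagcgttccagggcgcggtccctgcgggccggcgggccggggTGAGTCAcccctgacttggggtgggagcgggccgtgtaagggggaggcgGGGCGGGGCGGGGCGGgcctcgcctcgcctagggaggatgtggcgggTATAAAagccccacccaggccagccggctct
S100A6 and ANXA2 each held 3 GC boxes in this window, which overlap in part, and S100A10 and S100A11 each held 1. Of the 4 windows, the one of ANXA2 also held the AP-1 motif, 127 bases before the start, and a TATA motif 31 bases before it. RefSeq windows were found for 9 of the 10 members, 12 windows in all. The GC box was present in 7 of the 12 windows, beside 42.6% of all 35116 human windows. The TATA motif was present in 4 of them (S100A4, ANXA1, ANXA2 and 1 of the 3 windows of S100A13), beside 10.7% of all windows. The AP-1 motif was present in 1 of them, beside 6.57% of all windows.

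In A375 cells, S100A6, which binds the Siah1 adaptor CACYBP among other targets, had a higher level per transcript length than each of the other members. Its pooled level was 757 CPM (95% Poisson interval 744 to 770) with kit #634413 and 681 CPM (668 to 694) with kit #634444. Over the 15 intact wells, the lowest, median and highest levels were 409, 671 and 1611 CPM with kit #634413. With kit #634444 they were 181, 567 and 1936 CPM. No intact A375 cell was without it. Per length, it stood at 1169 ± 527 TPM (SD between cells, n = 15) and 1091 ± 762 TPM (n = 15), and its median ranked 26th and 41st among all protein coding genes. In Jurkat cells, S100A6 had 1 count in the 18 wells of kit #634413 and none in the 18 wells of kit #634444, where a sum of 0 allows up to 0.208 CPM. The intact A375 wells did not overlap the Jurkat wells.

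S100A11 and S100A16 were measured in every intact A375 cell and had no count in any of the 36 Jurkat wells. S100A11, the partner of ANXA1, had a pooled A375 level of 152 CPM (146 to 158) with kit #634413 and 130 CPM (124 to 136) with kit #634444. Its lowest, median and highest levels over intact A375 wells were 52.8, 142 and 289 CPM with the first kit and 75.3, 136 and 206 CPM with the second. S100A16, an EF-hand protein with a single working calcium site per chain, had pooled levels of 128 CPM (122 to 133) and 120 CPM (114 to 125). It ranged from 15.1 over a median of 121 to 279 CPM between intact A375 wells with kit #634413, and from 79.5 over 114 to 273 CPM with kit #634444. For both genes, a sum of 0 in Jurkat allows up to 0.166 CPM with kit #634413 and 0.208 CPM with kit #634444.

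S100A13, which takes part in the export of FGF1 and interleukin 1 alpha, was also present in every intact A375 cell. It had pooled levels of 141 CPM (136 to 147) with kit #634413 and 113 CPM (108 to 119) with kit #634444. Intact A375 wells ran from 60.4 over a median of 139 to 250 CPM and from 24.8 over 110 to 367 CPM. In Jurkat, it had counts in 1 of 18 and 2 of 18 wells, and the 42 counts of kit #634413 came from a single well. S100A4, a binder of non-muscle myosin that is linked to cell motility, was the most uneven member in A375. Its pooled level was 19.5 CPM (17.5 to 21.6) with kit #634413 and 35.7 CPM (32.8 to 38.9) with kit #634444. It had no count in 2 of 15 and 1 of 15 intact wells, and its highest wells reached 144 and 127 CPM over medians of 10.04 and 38.2 CPM. A single A375 well held 33.1% of the S100A4 counts of kit #634413, and the pooled level without it was 13.6 CPM. In Jurkat, S100A4 had counts in 3 of 18 and 2 of 18 wells.

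S100A10, which as the p11 subunit brings ANXA2 to the membrane, was at 144 CPM (138 to 149) in A375 with kit #634413 and at 155 CPM (149 to 162) with kit #634444. The lowest, median and highest intact A375 wells were at 16.9, 136 and 275 CPM and at 74.0, 142 and 327 CPM. Among the S100 members, it alone was common in Jurkat, at pooled levels of 39.3 CPM (36.5 to 42.3) and 29.1 CPM (26.4 to 32.0). The lowest, median and highest Jurkat wells were at 0, 3.43 and 275 CPM with kit #634413 and at 0, 18.6 and 124 CPM with kit #634444. With kit #634413 the highest Jurkat well was as high as the highest A375 well within rounding, and with kit #634444 it stayed under the A375 median.

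Of the annexins, ANXA1, known for limiting inflammation through formyl peptide receptors, was the one detected in most Jurkat wells. It was at 399 CPM (390 to 409) and 430 CPM (420 to 441) in A375. Intact A375 wells ran from 303 over a median of 398 to 730 CPM with kit #634413 and from 172 over 410 to 893 CPM with kit #634444. In Jurkat it was at 73.7 CPM (69.8 to 77.8) and 107 CPM (102 to 112), with medians of 40.8 and 96.5 CPM and highest wells of 255 and 350 CPM. The lines did not overlap for ANXA1 with kit #634413 (lowest intact A375 well 303 CPM, highest Jurkat well 255 CPM) and overlapped with kit #634444.

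ANXA2, which links membranes to actin and carries the S100A10 dimer, was at 251 CPM (244 to 259) and 275 CPM (267 to 284) in A375. Its lowest, median and highest intact A375 wells were at 77.5, 224 and 708 CPM with kit #634413 and at 66.1, 269 and 595 CPM with kit #634444. In Jurkat it was at 22.6 CPM (20.5 to 24.9) and 19.2 CPM (16.98 to 21.6), with highest wells of 147 and 61.2 CPM. The lines overlapped with kit #634413, and with kit #634444 the highest Jurkat well stayed just under the lowest intact A375 well. ANXA5, whose protein is used to label phosphatidylserine on dying cells, was at 126 CPM (121 to 131) and 121 CPM (115 to 127) in A375. Intact A375 wells ran from 65.8 over 109 to 303 CPM and from 54.0 over 120 to 274 CPM. In Jurkat ANXA5 was at 11.8 CPM (10.3 to 13.5) and 9.52 CPM (7.99 to 11.3), and the highest Jurkat wells, at 63.6 and 68.2 CPM, lay close to the lowest A375 wells.

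LGALS1 was at 39.6 CPM (36.7 to 42.6) in A375 with kit #634413 and at 53.4 CPM (49.8 to 57.3) with kit #634444. The lowest, median and highest intact A375 wells were at 0, 32.9 and 95.9 CPM and at 14.4, 43.95 and 122 CPM. In Jurkat, 1 well of kit #634413 held 16 counts, and no other Jurkat well of either kit had any.

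**Figure D1:**
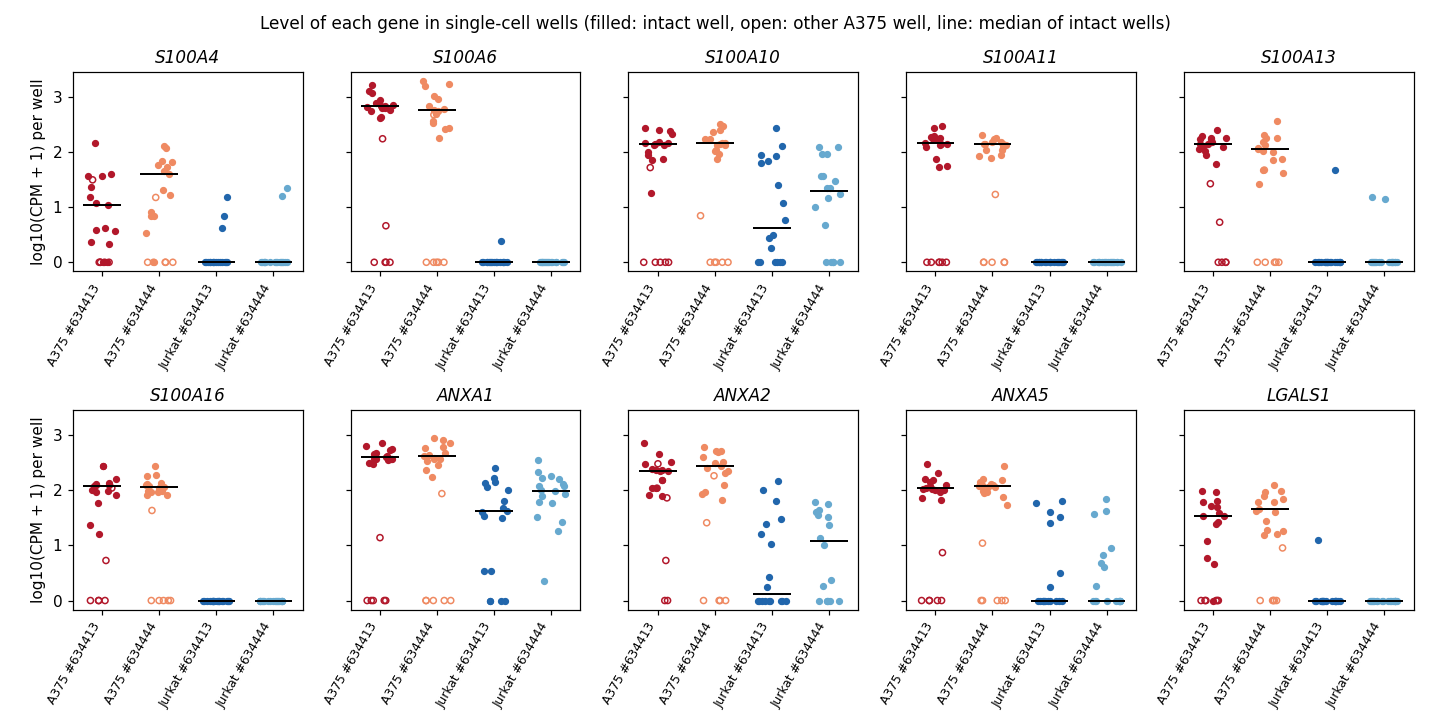
Level of each member as log10(CPM + 1) in the 78 single-cell wells by line and kit, with filled points for intact wells, open points for the other A375 wells and a line at the median of intact wells. S100A6 stands above 180 CPM in all 30 intact A375 wells and at or near 0 in Jurkat, whereas ANXA1, S100A10 and ANXA2 spread in Jurkat from 0 or near 0 to at most 350, 275 and 147 CPM; levels are to be compared within a panel.

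Per length, S100A6 led the members in A375 with both kits, ahead of the second gene by more than the larger of the neighbouring SDs between cells (1.69 and 1.07 times). The other neighbours in the order did not differ beyond this spread. With kit #634413, S100A11 (278 ± 121 TPM, SD, n = 15), ANXA1 (277 ± 99.8), S100A13 (262 ± 79.0), ANXA2 (215 ± 133) and S100A10 (203 ± 103) followed, and then ANXA5 (108 ± 58.5), S100A16 (104 ± 66.0), LGALS1 (86.8 ± 74.1) and S100A4 (45.6 ± 81.6). With kit #634444, the same 5 genes took the places behind S100A6, from ANXA1 (279 ± 118 TPM) to S100A13 (207 ± 135 TPM), and S100A4 (73.0 ± 76.1 TPM) was again the last. All 10 members together took 0.216% and 0.211% of the A375 counts and 0.0152% and 0.0168% of the Jurkat counts. Of 15 intact A375 wells, 12 and 14 had counts for all 10 members, and no intact A375 well had fewer than 9 of them. Jurkat wells had counts for 1 to 4 members with kit #634413 and for 1 to 5 with kit #634444, with a median of 3 for each.

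The 6 A375 wells per kit that were not intact held few counts for the members. The sum over the 10 genes was at most 106 counts in such a well with kit #634413 and at most 441 with kit #634444. No member was found in 2 and 4 of these wells, and 1 well with kit #634444 had all 10. The wells without any member held only 909 and 1331 counts in all with kit #634413 and 1230 to 2373 with kit #634444. At such totals, absence cannot be read from a lack of counts. Over all 21 A375 wells of a kit, ANXA2 was detected most often, in 19 and 17 wells.

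The ratio between the lines is the contrast on which the genes were selected and is given as a description. S100A10 had the smallest ratio with kit #634413, 3.65-fold higher in A375 (95% counting interval 3.36 to 3.97), and 5.34-fold (4.81 to 5.94) with kit #634444. With medians over all wells, intact or not, its log2 ratio was 4.82 and 2.82, above that of ANXA1 (3.18 and 1.91). For ANXA1, A375 was 5.42-fold (5.11 to 5.75) and 4.02-fold (3.81 to 4.26) above Jurkat. With mean TPM, its log2 ratio was 1.73 and 1.49 and that of S100A10 1.38 and 1.97, all under 4-fold. ANXA2 was 11.1-fold (10.04 to 12.3) and 14.3-fold (12.7 to 16.3) higher in A375. The annexins and S100A10 thus formed the lower end of the ratios. ANXA5 was 10.7-fold (9.27 to 12.3) and 12.7-fold (10.7 to 15.2) higher, with log2 ratios of 2.23 and 2.76 from mean TPM. S100A4 was 22.0-fold (13.4 to 39.0) and 25.7-fold (16.5 to 42.4) higher, and S100A13 60.9-fold (44.9 to 84.7) and 60.4-fold (41.4 to 92.0).

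The remaining ratios rest on at most 16 Jurkat counts. LGALS1 was 44.8-fold (27.4 to 78.8) higher in A375 with kit #634413 and at least 256-fold higher with kit #634444, taking 3 counts over the Jurkat group as the floor. S100A11 was at least 917-fold and 622-fold higher, and S100A16 at least 770-fold and 574-fold. With kit #634444, S100A6 was at least 3267-fold higher, and with kit #634413 its ratio to a single Jurkat count was 13701 with a counting interval of 2459 to 541190. Among all genes past the filter, the ratio of S100A6, with 3 counts as the smallest allowed sum, ranked 3rd of 10150 and 4th of 10239.

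Counts from single Jurkat wells set several of these ratios. Without the Jurkat well that held the count of S100A6 (kit #634413, well 3), the ratio became at least 4392-fold against the floor of 3 counts. Without Jurkat well 1 of kit #634413, S100A13 became at least 809-fold higher in A375, and without well 18 of kit #634444 it became 136-fold. S100A4 moved to 36.6-fold without well 4 of kit #634413 and to 61.8-fold without well 12 of kit #634444. ANXA5 moved to 19.6-fold without well 10 of kit #634444, and LGALS1 to at least 221-fold without well 15 of kit #634413.

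With a limit of 4-fold, 9 of the 10 members were higher in A375 with kit #634413 and 10 of 10 with kit #634444, and all 10 passed the filter of a mean of 10 CPM over both groups. Of all genes past this filter, 13.1% and 12.3% were at least 4-fold higher in A375. The median ratio of the members was 31.4-fold and 39.4-fold, on the log2 scale 4.97 and 5.30, beside medians over all genes of -0.05 and -0.04. Leaving out single wells gave 8 to 10 members with kit #634413 and 9 to 10 with kit #634444. S100A10 passed the limit with kit #634413 without Jurkat well 9 (5.24-fold) or 14 (4.10-fold). ANXA1 stood at the limit with kit #634444 and fell under it without any 1 of 5 A375 wells (3.82-fold to 3.99-fold) or any 1 of 9 Jurkat wells (3.75-fold to 3.98-fold). S100A4 dropped below the filter with kit #634413 without A375 well 2, 3, 7 or 21, at means of 7.26 to 9.69 CPM. For 6 of the 10 members with each kit, every intact A375 well lay above every Jurkat well, as it did for 2.19% and 2.93% of all genes. With both kits these were S100A6, S100A11, S100A13 and S100A16. ANXA1 and ANXA5 joined them with kit #634413, and ANXA2 and LGALS1 with kit #634444. Since the members were chosen on the ratio between the lines, nothing is read from these shares.

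**Figure D2:**
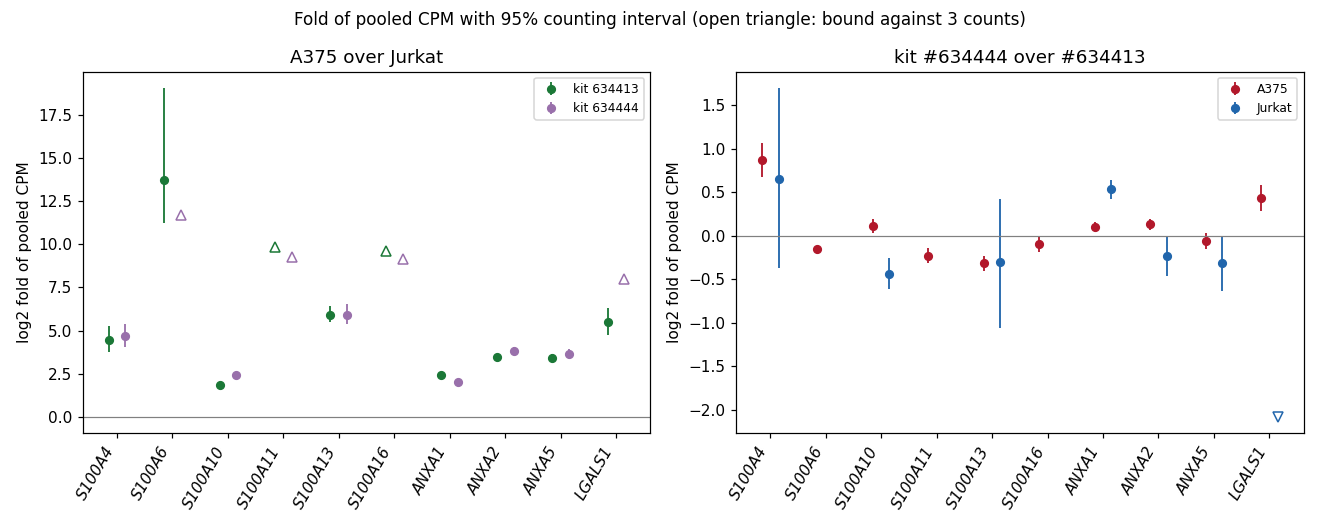
Log2 fold of the pooled CPM of each member between the lines (left, by kit) and between the kits (right, by line), with 95% counting intervals; open triangles are bounds set against a floor of 3 counts in the group without counts. All line folds lie above 1.8 on the log2 scale, and in A375 no kit fold reaches 1 in size.

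Within Jurkat, ANXA1, S100A10, ANXA2 and ANXA5 differed widely from well to well, at totals of 413959 to 1443975 counts with kit #634413 and 447397 to 1232381 with kit #634444. ANXA1 was detected, with at least 1 count, in 14 of 18 wells (77.8%, exact binomial interval 52.4 to 93.6%) with kit #634413 and in 18 of 18 (81.5 to 100%) with kit #634444. S100A10 was detected in 12 of 18 (66.7%, 41.0 to 86.7%) and 13 of 18 wells (72.2%, 46.5 to 90.3%). ANXA2 was detected in 9 of 18 (exact interval 26.0 to 74.0%) and 12 of 18 wells (66.7%, 41.0 to 86.7%), and ANXA5 in 7 of 18 (38.9%, 17.3 to 64.3%) and 8 of 18 wells (44.4%, 21.5 to 69.2%). When each well was thinned to 200000 counts, the wells detected were 13 and 17 for ANXA1, 9 and 13 for S100A10, 6 and 11 for ANXA2 and 5 and 6 for ANXA5. At this common depth S100A10, ANXA2 and ANXA5 were each missed in several wells with both kits, and ANXA1 in 5 wells with kit #634413 and 1 with kit #634444. All 18 Jurkat wells of each kit were deep enough for this, whereas 4 and 5 A375 wells were left out. In the A375 wells kept, S100A6 was detected in 15 of 17 and 16 of 16, and S100A11 likewise in 15 of 17 and 16 of 16.

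Single Jurkat cells had S100A10 within the range of the intact A375 wells with both kits, and ANXA2 within it with kit #634413 only. With kit #634413, well 9 had 275 CPM of S100A10 and 147 CPM of ANXA2, and wells 11 and 14 had 68.6 and 126 CPM of S100A10 with 102 and 62.1 CPM of ANXA2. Without well 9, which held 33.7% of the S100A10 counts, the pooled Jurkat level of S100A10 with this kit was 27.4 CPM. With kit #634444, wells 11, 6 and 3 had 124, 121 and 91.01 CPM of S100A10 and 61.2, 39.1 and 54.1 CPM of ANXA2. Other wells had S100A10 alone at such levels, wells 8 and 17 of kit #634413 with 83.7 and 87.1 CPM and well 12 of kit #634444 with 90.1 CPM. With kit #634413, 7 Jurkat wells had both genes, 5 only S100A10, 2 only ANXA2 and 4 neither. With kit #634444, 10 had both, 3 only S100A10, 2 only ANXA2 and 3 neither. Spearman's rho between the CPM of the partners over 18 Jurkat wells was 0.46 and 0.48. For ANXA1 and ANXA5 it was 0.03 with kit #634413 and 0.74 with kit #634444, and for ANXA1 and S100A10 0.03 and -0.26. These correlations are a description, and the wells share the total count as denominator.

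**Figure D3:**
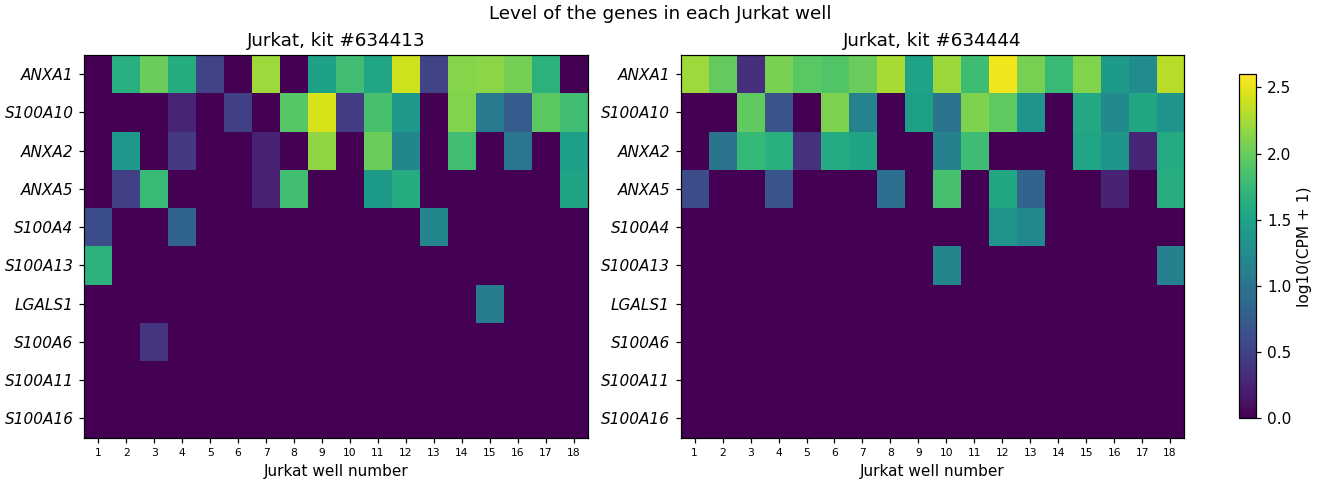
Level of the 10 members as log10(CPM + 1) in each of the 18 Jurkat wells per kit, with wells as columns (numbers only name them) and genes as rows. Color in the rows of ANXA1, S100A10, ANXA2 and ANXA5 is scattered over wells, single wells carry S100A4, S100A13 and LGALS1, and S100A11 and S100A16 are at 0 in all 36 wells.

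Between the kits, the question was whether the 2 chemistries give the same level of these genes in the same line. The choice of members did not use the ratio between the kits. It did compare the lines with both kits, so a like level in A375 is partly built in. In A375, no member was 2-fold apart between the kits, beside 5.03% of 10017 genes. With 10 members this count is near the share of all genes, and nothing is read from it. The median ratio of kit #634444 over kit #634413 was 1.02 for the members. S100A4 had the largest ratio, 1.83 (95% counting interval 1.60 to 2.10), which became 2.62 without A375 well 2 of kit #634413. With medians over all wells, intact or not, in place of sums, its log2 ratio was 2.31, but S100A4 then missed the filter. LGALS1 followed at 1.35 (1.22 to 1.495). The other 8 members lay between 0.802 (S100A13, 0.754 to 0.853) and 1.09 (ANXA2, 1.05 to 1.14). S100A6 was at 0.900 (0.877 to 0.923). For every member, the range of the intact A375 wells of one kit overlapped that of the other.

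In Jurkat, 4 members passed the filter for this comparison and none was 2-fold apart, beside 10.8% of 9273 genes. With so few members, nothing is read from this count. ANXA1 had a ratio of 1.45 (1.35 to 1.56), S100A10 of 0.740 (0.654 to 0.836), ANXA2 of 0.849 (0.726 to 0.991) and ANXA5 of 0.805 (0.645 to 1.002). The ratio of S100A10 was 1.06 without Jurkat well 9 of kit #634413, and that of ANXA5 0.522 without Jurkat well 10 of kit #634444. S100A4 and S100A13 had too few Jurkat counts to be placed: their ratios were 1.57 (0.774 to 3.24) and 0.808 (0.479 to 1.34), and leaving out single wells moved that of S100A4 from 0.655 to 2.61. Without Jurkat well 18 of kit #634444 the ratio of S100A13 was 0.360, and without Jurkat well 1 of kit #634413 it was at least 10.7.

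Intact A375 cells differed among themselves for each member. With kit #634413, the coefficient of variation between cells was lowest for ANXA1 (27.3%) and S100A13 (32.5%) and highest for S100A4 (170%) and LGALS1 (77.0%). With kit #634444, it was lowest for S100A11 (28.1%) and highest for S100A4 (96.6%) and S100A6 (73.4%). Counting error was not taken out of these coefficients. Among genes with a mean of at least 50 CPM (not S100A4, nor LGALS1 with kit #634413), the median coefficient was 55.1% and 46.7%. The share of these genes with a lower coefficient was 3.19% for ANXA1 with kit #634413 and 45.0% with kit #634444, and for S100A6 it went from 23.6% to 90.2%. It was alike with both kits for S100A10 (40.4% and 44.4%), ANXA5 (30.3% and 34.0%) and ANXA2 (73.5% and 74.8%).

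Over the 15 intact A375 cells per kit, correlations among the members were mostly weak and positive. The median of Spearman's rho over the 45 combinations was 0.21 with kit #634413 and 0.26 with kit #634444, and 31 combinations were positive with both. S100A10 and LGALS1 were the only combination with a rho of at least 0.5 with both kits (0.69 and 0.50). S100A6 went with S100A10 at 0.81 and 0.43 and with S100A16 at 0.38 and 0.85. S100A4 went with ANXA2 at 0.80 with kit #634413 and at 0.19 with kit #634444. S100A10 and ANXA2, whose proteins form a complex, were at 0.21 and 0.03, and S100A11 and ANXA1 at 0.17 and -0.06. These values are a description over 15 points that share their depth. The CPM of S100A6 itself had a rho with the total count of 0.50 with kit #634413 and -0.01 with kit #634444, and its part in the correlations was not tested.

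**Figure D4:**
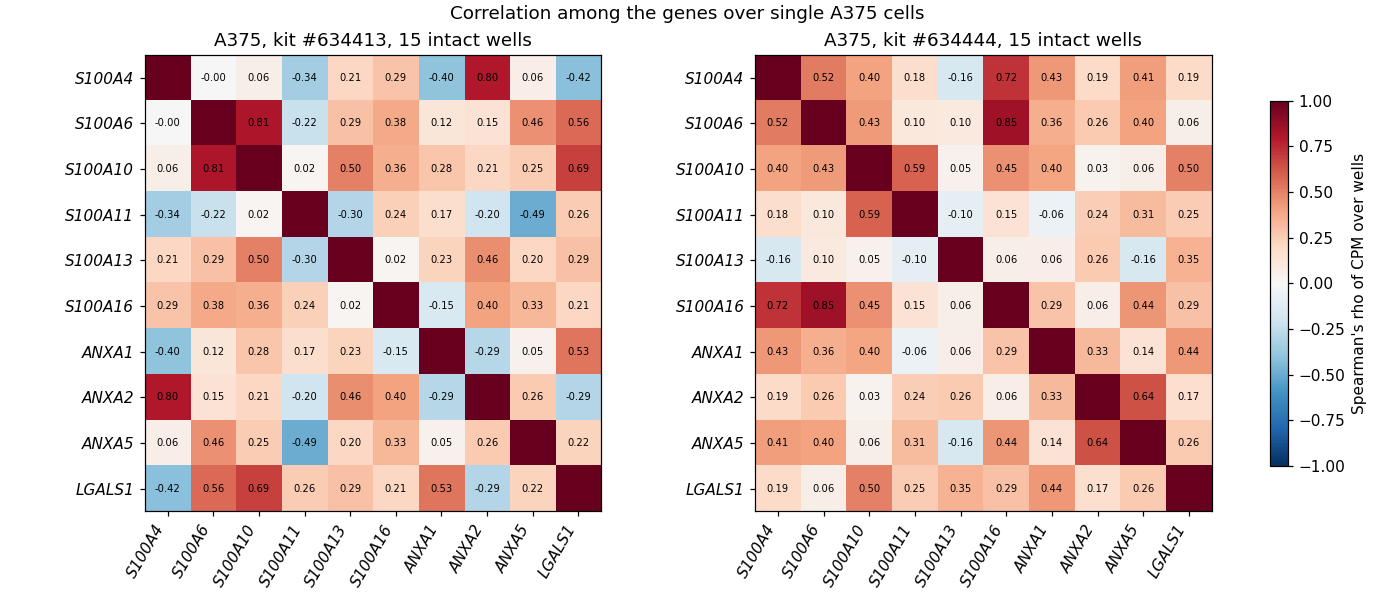
Spearman's rho between the CPM of the members over 15 intact A375 wells, with kit #634413 on the left and kit #634444 on the right, from blue (-1) to red (1). The strongest combinations differ between the kits, as S100A6 with S100A10 (0.81 and 0.43) and S100A6 with S100A16 (0.38 and 0.85) show.

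Among 3452 other genes with at least 50 CPM in A375 with both kits, those most like the mean log2(CPM + 1) of the 10 members were MYOF, ACTN4, TINAGL1, LRRFIP2 and SEPTIN9. MYOF, coding for the membrane repair protein myoferlin, had a rho of 0.43 and 0.93 over 15 wells each. ACTN4, coding for an actin crosslinker, had 0.69 and 0.66, and TINAGL1 0.58 and 0.77. For LRRFIP2 it was 0.75 and 0.53, and for the septin gene SEPTIN9 0.54 and 0.71. The mean of the kits over all 3452 genes had a median of -0.01, and 36 genes reached 0.5. The mean level of the members had itself a rho with the total count of 0.64 with kit #634413 and of -0.06 with kit #634444. MYOF was at 123 and 99.2 CPM in A375 and at 0.276 CPM and 0 in Jurkat, whereas LRRFIP2 was alike in both lines (99.5 and 75.5 CPM, 94.9 and 73.1 CPM) and SEPTIN9 was higher in Jurkat (231 and 278 CPM, 832 and 730 CPM).

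As the libraries cover whole transcripts, the counts could be split by isoform as the estimate of Kallisto does. S100A11-201 held 98.7% and 97.1% of the S100A11 counts in A375. S100A6-201, S100A10-201 and S100A16-204 also led their genes with both kits, and S100A10-201 held 71.6% and 72.8%. A longer transcript of S100A10, S100A10-202 (1202 bases, beside 616 for S100A10-201), held a further 26.1% and 24.1% in A375. In Jurkat it held 0% with kit #634413 and 16.4% with kit #634444, where 3 wells carried it. In A375 it had at least 1 count in 13 wells with kit #634413 and in 14 with kit #634444.

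ANXA1-201 held 77.0% and 79.9% of the ANXA1 counts in A375 and 45.8% and 55.7% in Jurkat. The shorter protein coding transcript ANXA1-204 held 4.60% and 3.23% in A375 and 22.9% and 23.3% in Jurkat. Another short one, ANXA1-203, held 1.70% and 0.282% in A375 and, unlike between the kits, 22.5% and 2.74% in Jurkat. The single cells were uneven behind these sums. Of the Jurkat wells with at least 20 ANXA1 counts, 3 of 12 and 6 of 16 had under 0.5% of them on ANXA1-201, and 7 of 12 and 8 of 16 on ANXA1-204. For ANXA1-204 this also held in 10 of 15 and 10 of 16 such A375 wells. A single Jurkat well held 45.0% of the ANXA1-204 counts of kit #634413. For ANXA5 the kits differed in A375: ANXA5-201 held 34.8% with kit #634413 and 71.2% with kit #634444, and ANXA5-203, annotated as a target of nonsense-mediated decay, 18.8% and 0.925%. ANXA5-203 was seen in 5 and 1 A375 wells. The leading transcript of S100A4 was S100A4-202 with kit #634413 (67.3%) and S100A4-204 with kit #634444 (44.4%), from 7 and 9 wells with at least 20 counts. S100A13-201 (47.6% and 37.3%) and S100A13-204 (31.3% and 46.3%) changed places in the same way, and LGALS1-201 held 70.0% and 94.6%. The share of each ANXA2 transcript was at most 38.2% in A375.

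The place of the S100 members on the chromosome put genes with many counts and genes with none side by side in A375. In GENCODE v44 (GRCh38), S100A10 (chr1:151982915-151993859) and S100A11 (chr1:152032506-152047907) lie apart from the others, which run from S100A9 to S100A1. Of the S100 genes between S100A11 and S100A6, which are S100A9, S100A12, S100A8, S100A7A, S100A7L2 and S100A7 in this order, none had more than 8 counts in an A375 group. S100A6 (chr1:153534599-153536244) follows, and then S100A5, with 0 and 6 counts in A375, before S100A4 (chr1:153543613-153550136). S100A3, whose annotated span lies within that of S100A4, had 5 and 49 counts, so that reads shared by these genes rest on how Kallisto splits them. S100A2 had 32 and 15 counts. S100A16 (chr1:153606886-153613145) and S100A13 (chr1:153618787-153631360), both at over 100 CPM, enclose S100A14, with 0 and 2 counts. S100A1, on the opposite strand and overlapping S100A13, was at 19.4 and 25.3 CPM in A375 and at 0.553 and 0.417 CPM in Jurkat. The reads were counted with strand, which keeps S100A1 and S100A13 apart.

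**Figure D5:**
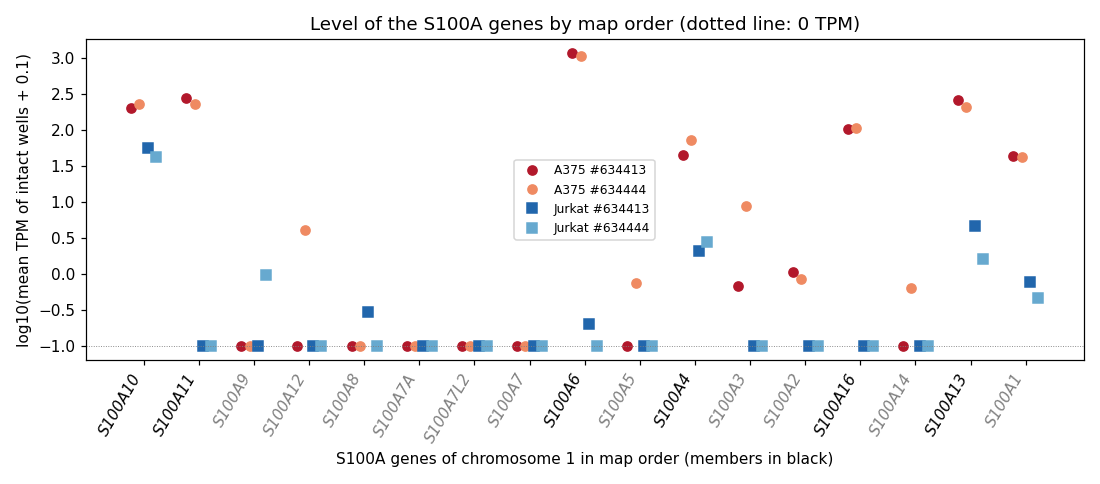
Mean TPM of intact wells, as log10(TPM + 0.1), of the S100A genes of chromosome 1 in map order, with circles for A375, squares for Jurkat and the members in black on the axis. The 6 members stand at 45.6 TPM or more in A375, the genes from S100A9 to S100A7 at 3.97 TPM or less, and in Jurkat S100A10 alone stands above 5 TPM.

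Outside the members, 15 other S100 genes were measured. None had a mean of 10 CPM with kit #634413, and 2 had it with kit #634444, S100A1 and S100B. Both were at least 4-fold higher in A375 with kit #634444. With kit #634413, S100A1 stayed just under the filter and was 35.2-fold (18.9 to 74.0) higher in A375. S100B, the marker of melanocytic and glial cells, is also among the melanoma line markers used above, so its direction is no separate result. S100P had 7.07 and 3.65 CPM in A375, and 0 and 10 counts in Jurkat. With kit #634444, S100Z went the other way, at 0.608 CPM in A375 and 4.86 CPM in Jurkat. With kit #634413 it had 5 counts in A375 and 0 in Jurkat. Of 10 other annexins, 3 and 4 passed the filter, and 1 of them, ANXA6, was at least 4-fold higher in Jurkat with both kits, and the median log2 ratio of A375 over Jurkat was -0.25 and -0.21. ANXA6, an annexin with a doubled core, was at 29.3 and 34.1 CPM in A375 and at 219 and 232 CPM in Jurkat, opposite to the annexins among the members. ANXA11 (80.4 and 110 CPM in A375, 95.5 and 114 CPM in Jurkat) and ANXA7 reached the limit with neither kit. ANXA4 was 6.52-fold (4.55 to 9.58) higher in A375 with kit #634413, where it missed the filter. With kit #634444 it passed the filter and was 3.29-fold (2.64 to 4.14) higher in A375. Of all genes past the filter, 9.72% and 8.01% were at least 4-fold higher in Jurkat.

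Galectins divided between the lines. Of 15 other galectin genes, 4 and 3 passed the filter, with 1 in each direction for both kits and a median log2 ratio of -0.18 and 0.34. LGALS3, the gene of the chimera-type galectin-3, was at 31.5 and 30.2 CPM in A375 and had 3 counts in Jurkat with each kit. LGALS9, coding for a tandem-repeat galectin, was at 76.0 CPM in Jurkat with each kit and at 0.773 and 1.01 CPM in A375. LGALS8 differed little (62.6 and 82.6 CPM in A375, 59.5 and 65.1 CPM in Jurkat). Of 8 enzymes that build or cap the glycans read by galectins, 7 passed the filter and none reached 4-fold in either direction (median log2 ratio of A375 over Jurkat 0.49 and -0.14). B4GALT1, which adds galactose, was at 110 and 87.7 CPM in A375 and at 46.1 and 41.8 CPM in Jurkat. It had the most CPM of these enzymes over the 4 groups. MGAT5, C1GALT1 and ST6GAL1 came next, and their levels by line are not given here. Of 13 receptors and ligands of the members' proteins, 9 passed the filter, with a median log2 ratio of 0.48 and 0.33. PTPRC, SPN, CD7 and CD2, T cell glycoproteins bound by galectin-1, were at least 4-fold higher in Jurkat with both kits. Of these, PTPRC, CD7 and CD2 are also among the T cell markers used above, so their direction is no separate result. ITGB1 and BSG, also among the genes of the receptor list with the most CPM, did not reach 4-fold in either direction. NRP1 was at least 4-fold higher in A375 with both kits, and LGALS3BP with kit #634444 (4.11-fold, beside 2.90-fold with kit #634413). The formyl peptide receptor genes FPR1, FPR2 and FPR3 had at most 26 counts in a group.

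Of 20 partners of S100 proteins and annexins, 14 and 15 passed the filter, 5 and 6 were at least 4-fold higher in A375 and none in Jurkat, with a median log2 ratio of 0.33 and 0.45. AHNAK, the giant scaffold bound by S100A10 and ANXA2, was at 1510 and 1271 CPM in A375 and at 1.60 and 4.03 CPM in Jurkat. The calpain gene CAPN2, PPFIBP1, SYT1 and PLAUR were also higher with both kits, and PLAT with kit #634444, for which 361 and 290 counts in A375 stood beside 0 and 50 in Jurkat. With kit #634413, PLAT stayed just under the filter. MYH9, the myosin chain bound by S100A4, was at 548 and 432 CPM in A375 and at 1208 and 1175 CPM in Jurkat, and MYH10 (228 and 211 CPM, 407 and 311 CPM) and CACYBP (163 and 170 CPM, 187 and 244 CPM) also stayed within 4-fold.

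Processed pseudogenes resemble some of the members. Of 11 annotated pseudogenes of S100A11 and ANXA2 among the targets, 10 had no count in any well, and ANXA2P2 had 30.2 estimated counts in A375 with kit #634444, beside 4072 for ANXA2. Kallisto splits reads between such copies, so their counts are uncertain.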

How the data were processed

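The authors trimmed the paired-end reads, quantified them with Kallisto in its stranded mode against Ensembl v91 transcripts with spike sequences, and deposited estimated counts (expected counts, not normalized) and TPM for 200471 targets per well. The submitters' processing notes list kallisto 0.43.1, STAR 2.5.3 and hg38. The pools of wells are not named in the labels.

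Counts and TPM were summed to genes through the transcript identifiers of GENCODE v44, which holds 195850 of 200206 Ensembl targets. CPM used all counts without spikes, the ribosomal DNA target included. Pooled sums carry 95% Poisson intervals, ratios intervals conditional on the summed counts, and shares of wells exact binomial intervals. They cover counting error only, since there are no molecular identifiers. Sums of 0 were set to 3 counts, and the bounds from this floor carry no interval. A fold limit (4 between lines, 2 between kits) applied to genes with a mean of at least 10 CPM over both groups. Wells were thinned to 200000 counts by random draws. The fold procedure was tested on simulated data. Python 3.11.15 with numpy 2.4.6, pandas 2.3.3, scipy 1.17.1 and matplotlib 3.10.9 was used.

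The members and lists were chosen with earlier results of these data known. The text names all members and the 5 genes most like the members' mean. Of each list, it names most or all of the 4 genes with the most CPM over the 4 groups. For some of these no level is given. Further list genes were named after their values were seen. Alternatives were other wells, denominators, TPM, medians, limits and filters, and single wells left out were added after the data were seen. Protein sequences and the LGALS1 promoter were not used here.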

Additional observations from a re-analysis of the deposited data

How the results depend on the processing

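With other well sets, denominators, TPM, limits or filters, the count of members at least 4-fold higher in A375 stayed at 7 or more with kit #634413 and at 8 or more with kit #634444. The count of members 2-fold apart between the kits was 0 and became 1 in A375 with a 1.5-fold limit (S100A4), 0 to 1 in A375 when single wells were left out, 2 in Jurkat with medians over wells and 1 in Jurkat with no filter beyond 3 counts (LGALS1). The count of combinations with a rho of at least 0.5 with both kits was 1 and became 2 with protein coding counts as denominator, 2 with TPM and 0 with Pearson's r of log2(CPM + 1). Of the members' ratios under these alternatives, 78 of 80 between the lines kept their direction and moved by less than 1 SD of the log2 level between wells, as did 77 of 80 between the kits. This SD is wide, and several ratios moved by over 1.5 times within it. Between the lines, the log2 ratio with kit #634413 became 13.01 for S100A6 with mean TPM and 8.63 for ANXA2 with medians. With medians over wells, 3 kit ratios changed sign: the log2 ratio of ANXA1 in A375 was -0.0273, that of S100A10 in Jurkat 2.44 and that of ANXA2 in Jurkat 4.85. The medians in these ratios run over all wells, intact or not. With kit #634413, ANXA2 was detected in 9 of 18 Jurkat wells, so its median there lies near 0. The cause was not tested. With TPM, the share of the leading transcript moved by over 10 points in 8 of 20 cases. Depth limits the statements on Jurkat, where the floor of 3 counts for a sum of 0 equals 0.166 and 0.208 CPM. No paired analysis was possible because the well numbers only name the wells.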
